A study of Mus musculus with 18 samples.

Results

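Messenger RNA of Vhl, of the hypoxia-inducible factor (HIF) subunits and of the HIF hydroxylases was followed through 18 libraries of mouse OPCs (oligodendrocyte progenitor cells), which divide and give rise to myelinating cells. The 9 genes were chosen by symbol: Vhl, Hif1a, Epas1, Arnt, Arnt2, Egln1, Egln2, Egln3 and Hif1an. All 9 were matched in both deposited tables, of 54279 rows in each. The cells of every group were OPCs made from epiblast stem cells and kept with the supplements N2max and B27 and the growth factors Fgf2 and Pdgfa. The CRISPR-Vhl OPCs, described by the series as a VHL knockout and called Vhl cells here, were set against CRISPR-Control OPCs. The groups were untreated Vhl and control cells, and, in a second experiment, Vhl and control cells given 300 nM of the MEK inhibitor AZD8330, or DMSO, for 14 hours. Each group had 3 libraries, A to C. The sources used here do not give the guide, the edited part of Vhl, the strain or whether the cells were a clone or a pool. Nothing in the labels shows the libraries of 1 group to be separate cultures. The p-values therefore cover the spread between these libraries alone, and that spread may be technical.

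When oxygen is present, prolyl hydroxylases of the EGLN (PHD) family mark the alpha subunit of HIF, and VHL, the substrate receptor of a ubiquitin ligase, then binds it and directs its destruction. An alpha subunit that escapes pairs with ARNT or ARNT2 and switches on target genes, and the asparaginyl hydroxylase HIF1AN limits its contact with coactivators. Egln1 and Egln3 are themselves known HIF target genes, which closes a feedback loop. In the oligodendrocyte lineage, sustained HIF activity is known to hold back maturation. These steps act on proteins, whereas only RNA was measured here.

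Levels are given in CPM, counts scaled to a common library total, from estimated counts that summed to between 14594148 and 21160250 in untreated libraries and between 12391077 and 16349676 in the drug experiment. The untreated libraries spread more widely within groups (edgeR common dispersion 0.144) than those of the drug experiment (0.0161). Library A of both untreated groups stood apart: the lineage factor Sox10 had 327.1 CPM in Vhl A against 15.32 and 16.02 CPM in Vhl B and C, and 526.9 CPM in control A against 88.05 and 87.76 CPM in control B and C. The cell label was checked against marker lists. The 8 OPC markers summed to between 8253 and 14100 CPM in the 18 libraries, against 657.9 to 1751 CPM for 5 astrocyte, 8.541 to 197.1 CPM for 6 myelinating oligodendrocyte, 42.7 to 108 CPM for 5 neuron and 28.92 to 98.38 CPM for 4 Schwann cell markers. Sums were 4.625 to 48.87 CPM for 5 mesenchymal, 4.111 to 23.8 CPM for 5 pluripotency, 4.231 to 9.302 CPM for 5 endothelial and 0.146 to 1.462 CPM for 5 microglia markers. Ptprz1 (2990 to 8150 CPM) and Olig1 (2730 to 3370 CPM) were the largest parts of the OPC sum. Sox10, also on that list, had 20.27, 17.42 and 15.5 CPM in Vhl cells with DMSO, against 47.91, 55.44 and 50.59 CPM in control cells. Some genes that every cell uses were listed near 0 in both experiments. The elongation factor gene Eef2 had 2.03 to 4.76 CPM in untreated libraries and 0.654 to 2.48 CPM in the drug experiment. The RNA polymerase gene Polr2a had 0.0636 to 1.02 CPM in untreated libraries and 0 to 4.71 CPM in the drug experiment. A low or absent value thus does not show a gene to be silent.

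Of the 9 genes, 8 passed the expression filter of a mean of 1 CPM in each table, and Epas1, listed at 0 in all 18 libraries, was not tested. Per kilobase of annotated exon, Egln1 was the most abundant of the 9 in all 3 Vhl groups, and Hif1a was the most abundant in all 3 control groups. In Vhl cells with DMSO, Egln1 stood at 209.1 ± 5.73 CPM per kilobase, followed by Egln3 at 45.49 ± 2.37 and Hif1a at 44.42 ± 1.55 (SD, n = 3), whose libraries overlapped each other. In control cells with DMSO, Hif1a stood at 56.11 ± 3.05 CPM per kilobase, followed by Egln1 at 38.52 ± 1.33, Vhl at 35.39 ± 1.13 and Arnt2 at 25.68 ± 1.53, none overlapping its neighbour. Hif1an at 13.29 ± 0.586 and Egln3 at 12.31 ± 0.746 CPM per kilobase came next there and overlapped. Arnt and Egln2 were the lowest of the detected genes in every group, between 0.4902 and 3.777 CPM per kilobase on average, in an order that differed between groups. Egln3 ranked at 2 or 3 in the Vhl groups and at 6 in the control groups. In untreated Vhl cells the order rested on libraries that differed widely, since Egln1 ran from 55.82 to 309.7 CPM per kilobase and overlapped Hif1a.

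**Figure D1:**
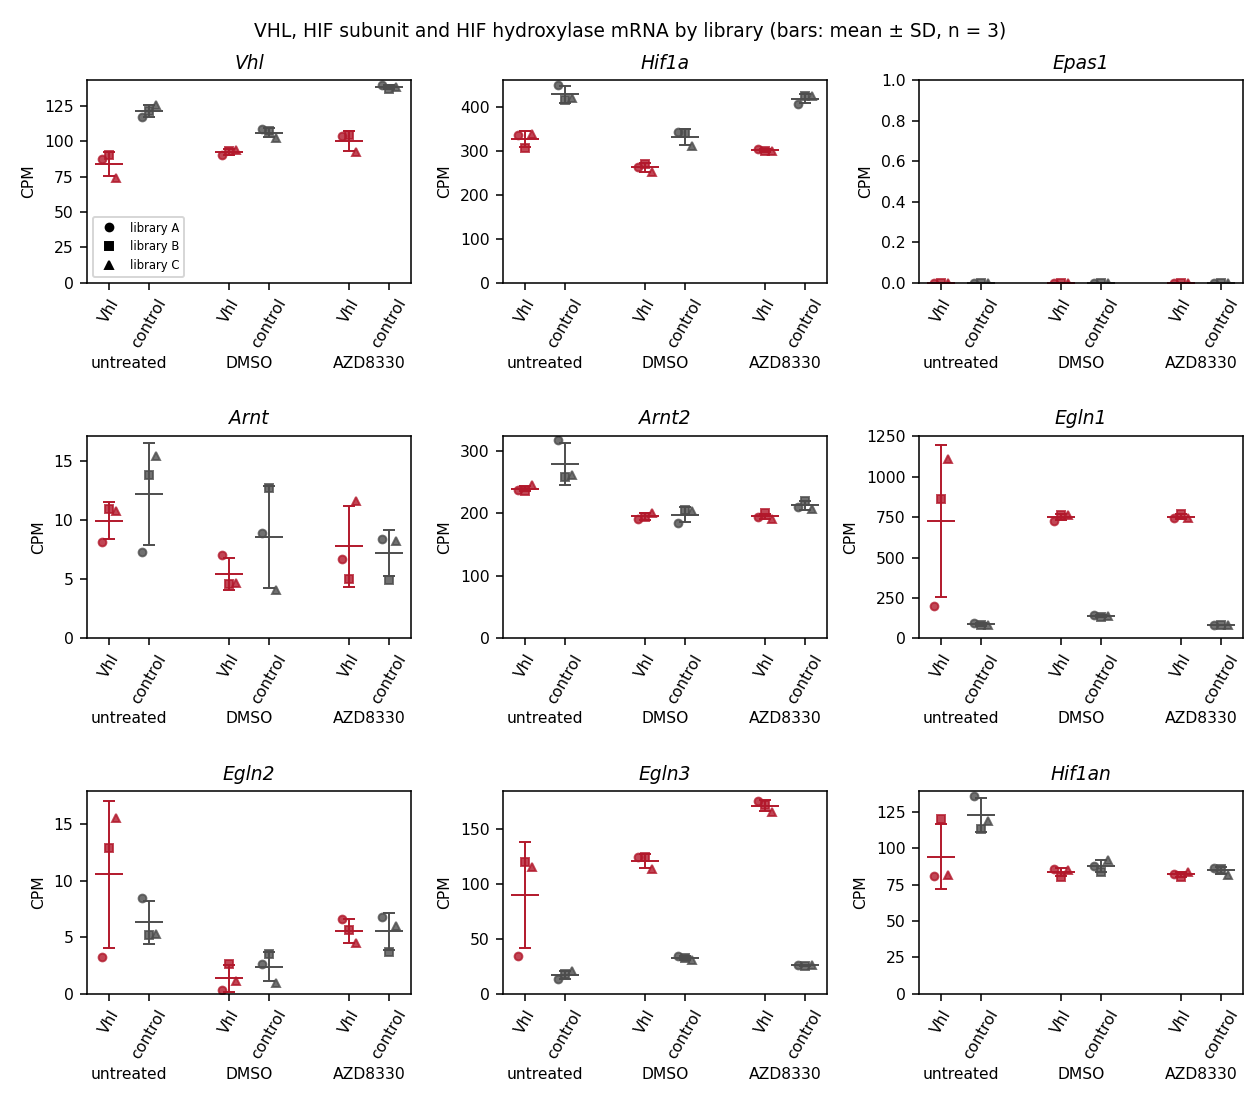
Each panel plots 1 gene in CPM against group, with Vhl groups (red) left of control groups (grey) for untreated, DMSO and AZD8330 cells; points are libraries and bars the mean ± SD of 3. Egln1 and Egln3 lay higher in every Vhl library than in every control library of the same treatment, Vhl and Hif1a lay lower, and Epas1 was at 0 throughout.

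Vhl itself was lower in Vhl cells than in controls under each treatment, without overlap of libraries. Untreated Vhl cells had 87.31, 90.19 and 74.14 CPM in libraries A to C, and untreated control cells had 116.9, 121.1 and 125.4 CPM. With DMSO, Vhl cells had 90.04, 93.17 and 94.08 CPM and control cells 108.8, 107.1 and 102.3 CPM. With AZD8330, Vhl cells had 103.7, 104.6 and 92.02 CPM and control cells 139.8, 136.7 and 138.3 CPM. Transcript thus persisted in all 9 Vhl libraries, and the RNA level alone does not report on the protein. The fall passed edgeR's quasi-likelihood test with DMSO (log2 −0.20 ± 0.05 SE, adjusted p = 0.00777) and with AZD8330 (log2 −0.46 ± 0.05, adjusted p = 1.01e-05). In untreated cells it did not pass (log2 −0.53 ± 0.16, edgeR adjusted p = 0.357), nor without both A libraries (log2 −0.59, edgeR adjusted p = 0.0928). Without the 4 A libraries of the drug experiment, the DMSO difference was log2 −0.12 and did not pass (edgeR adjusted p = 0.259). The Vhl locus is chr6:113623959-113631633, plus strand (GRCm38), and none of its 31-base words occurs in another annotated gene.

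Genes for proteins that work with VHL, either as ligase subunits or as deubiquitinases that bind it, were counted in Vhl over control cells. Of 6 such genes tested (Elob, Eloc, Cul2, Rbx1, Usp20 and Usp33), 0 rose and 1 fell with DMSO, where 13.8% of all tested genes rose and 18.5% fell. With AZD8330, 0 rose and 1 fell, where 16% of all tested genes rose and 14% fell. With 6 genes, these counts are not read as a result about the list. The gene that fell was Rbx1, the RING subunit, at 277.5 ± 5.35 CPM in Vhl cells and 299.9 ± 5.80 CPM in control cells with DMSO (log2 −0.11 ± 0.03, edgeR adjusted p = 0.0107), and at 229.8 ± 3.04 CPM in Vhl cells and 244.3 ± 5.08 CPM in control cells with AZD8330 (log2 −0.09 ± 0.03, edgeR adjusted p = 0.04). The median log2 change of the 6 was −0.05 with DMSO, beside −0.03 over all tested genes, and 0.07 with AZD8330, beside 0.01 over all. In untreated cells 0 of 6 rose or fell, where 0.0147% of all tested genes rose and 0% fell. With AZD8330 over DMSO, 2 of 6 fell in Vhl cells, where 25.6% of all tested genes fell, and 4 of 6 fell in control cells, where 31.7% fell. In neither genotype did any of the 6 rise, where 25.8% of all tested genes rose in Vhl cells and 29.1% in control cells. The drug counts are not read as a result about the list either. Eloc, which encodes elongin C, fell in both genotypes, at 103.5 ± 2.03 CPM with AZD8330 against 130.2 ± 4.48 CPM with DMSO in Vhl cells and 94.67 ± 3.50 against 133.1 ± 6.62 CPM in control cells.

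Hif1a, which encodes the oxygen-regulated HIF-1 alpha subunit, was lower in every Vhl library than in every control library of the same treatment. Untreated Vhl cells had 336.0, 306.7 and 339.0 CPM, and untreated control cells had 450.3, 416.1 and 419.3 CPM. With DMSO, Vhl cells had 263.8, 269.9 and 251.9 CPM and control cells 342.4, 339.9 and 310.1 CPM. With AZD8330, Vhl cells had 304.1, 298.4 and 300.2 CPM and control cells 406.9, 423.7 and 424.3 CPM. The libraries of the 2 genotypes thus separated in all 3 settings. The share of all tested genes that separate in this way was not counted, here or for the other genes. Hif1a fell with DMSO (log2 −0.34 ± 0.04, 0.792-fold, edgeR adjusted p = 4.25e-05) and with AZD8330 (log2 −0.48 ± 0.04, 0.719-fold, edgeR adjusted p = 1.63e-06). The untreated difference of log2 −0.39 ± 0.16 did not pass (edgeR adjusted p = 0.516), nor without both A libraries (log2 −0.37, edgeR adjusted p = 0.131). In these bulk samples, fewer cells of a type and less RNA per cell cannot be told apart. Of the 31-base words of Hif1a, 6.72% also occur in another gene, mainly in the antisense gene Gm15283 and the overlapping Gm49321, and the sources used here do not say whether counting used strand. The Hif1a locus is chr12:73901375-73947530, plus strand (GRCm38). Epas1, which encodes the HIF-2 alpha subunit, gave no value to set beside it.

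The subunits that pair with HIF-alpha gave 1 borderline call. Arnt2, which is prominent in neural tissue, had 190.2, 193.4 and 200.6 CPM in Vhl cells with DMSO, against 183.9, 205.0 and 203.6 CPM in control cells, and these overlapped (log2 −0.02 ± 0.04, edgeR adjusted p = 0.784). With AZD8330 it had 194.0, 199.6 and 190.4 CPM in Vhl cells, against 210.5, 219.5 and 206.8 CPM in control cells. That was a narrow separation, and the fall of log2 −0.12 ± 0.04 passed at an edgeR adjusted p of 0.0495. The call was lost with library totals (adjusted p = 0.0569), without the filter (0.0714), without control AZD8330 A (0.0853) or B (0.0675), and without Vhl AZD8330 C (0.0634), all in edgeR. Untreated Arnt2 was 239.2 ± 4.51 CPM in Vhl cells and 278.5 ± 33.3 CPM in control cells, also without overlap of libraries, and did not pass (edgeR adjusted p = 0.751). Arnt, the widely expressed beta subunit, ranged from 4.58 to 11.6 CPM in the Vhl libraries and from 4.08 to 15.5 CPM in the control libraries, with overlap under each treatment and no call in any comparison. None of its 18 values was whole within 0.001, and edgeR's SE of its log2 changes lay between 0.34 and 0.56. A difference of the size seen for Vhl or Hif1a was not detectable for Arnt at this precision.

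Egln1, which encodes PHD2, the main oxygen sensor of the HIF pathway, and Egln3, which encodes PHD3, were higher in every Vhl library than in every control library of the same treatment. With DMSO, Egln1 had 727.9, 761.8 and 765.0 CPM in Vhl cells, against 143.9, 134.7 and 136.7 CPM in control cells. With AZD8330 it had 743.1, 770.5 and 746.2 CPM in Vhl cells, against 82.20, 83.11 and 80.38 CPM in control cells. The Vhl libraries thus clustered around a similar level in both media, while the control libraries were lower with the drug. Egln1 rose 5.43-fold with DMSO (log2 2.44 ± 0.03, edgeR adjusted p = 1.36e-13) and 9.19-fold with AZD8330 (log2 3.20 ± 0.04, edgeR adjusted p = 7.9e-15). Egln3 had 124.4, 125.1 and 113.8 CPM in Vhl cells with DMSO, against 34.81, 32.65 and 30.84 CPM in control cells. With AZD8330 it had 176.0, 171.6 and 166.0 CPM in Vhl cells, against 26.05, 25.50 and 26.75 CPM in control cells. For Egln3, the drug went with higher values in Vhl cells and lower values in control cells. It rose 3.69-fold with DMSO (log2 1.88 ± 0.05, edgeR adjusted p = 8.24e-11) and 6.56-fold with AZD8330 (log2 2.71 ± 0.06, edgeR adjusted p = 1.68e-12). No 31-base word of Egln1, Egln3 or Egln2 occurs in another annotated gene.

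In untreated cells Egln1 and Egln3 varied more between libraries. Egln1 had 200.6, 864.6 and 1113.2 CPM in Vhl libraries A to C, against 95.95, 81.20 and 83.71 CPM in control libraries. Egln3 had 34.40, 120.2 and 115.2 CPM in Vhl libraries A to C, against 13.12, 18.18 and 20.62 CPM in control libraries. Vhl A was the lowest Vhl library for both genes, yet lay above all 3 control libraries. With all libraries, neither Egln1 (log2 3.06 ± 0.59, edgeR adjusted p = 0.162) nor Egln3 (log2 2.38 ± 0.48, edgeR adjusted p = 0.186) passed. Without both A libraries, both rose (log2 3.58 for Egln1 and 2.60 for Egln3, edgeR adjusted p = 0.00667 each), and they also rose when Vhl A alone was left out (adjusted p = 0.000888 and 0.00383). DESeq2 called them with all libraries (adjusted p = 2.74e-06 for Egln1 and 0.000106 for Egln3), as did edgeR without the filter (adjusted p = 0.0046 and 0.0107). Neither was called in limma, or in edgeR with the replicate block, library totals, DESeq2 size factors or filterByExpr. Leaving out any single library other than Vhl A did not give a call in edgeR either.

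**Figure D2:**
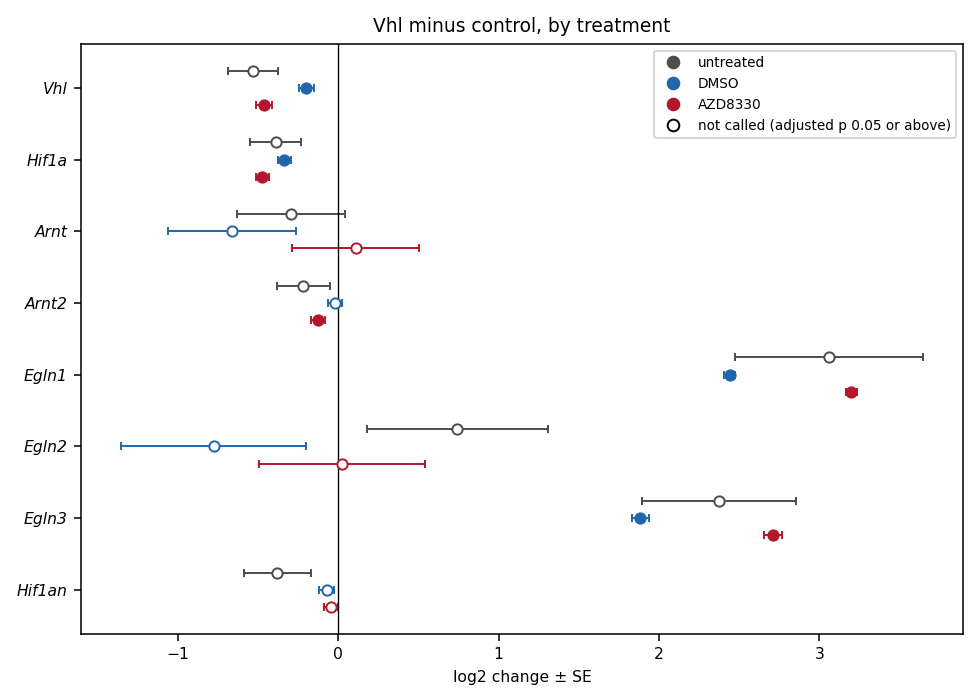
The log2 change ± SE (horizontal axis) of each of the 8 tested genes in Vhl over control cells is drawn for untreated, DMSO and AZD8330 cells; filled points passed an adjusted p of 0.05 in edgeR and open points did not. Egln1 and Egln3 lie between log2 1.88 and 3.20, the other genes lie near or below 0 or carry wide errors, and no untreated point is filled.

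The promoters of Egln1 and Egln3, the genes that rose, are shown with that of their family member Egln2, which did not rise with the edit under DMSO or AZD8330. They are RefSeq windows of 300 bases on GRCm38.p6, 250 bases before and 50 bases from the start site on, read on the strand of the gene, the minus strand for all 3. Capitals mark the letters ACGTG and GCGTG, the core of the hypoxia response element, searched on both strands, so that CACGT and CACGC are the same letters read on the other strand.
Egln1, chr8:124949205-124949504: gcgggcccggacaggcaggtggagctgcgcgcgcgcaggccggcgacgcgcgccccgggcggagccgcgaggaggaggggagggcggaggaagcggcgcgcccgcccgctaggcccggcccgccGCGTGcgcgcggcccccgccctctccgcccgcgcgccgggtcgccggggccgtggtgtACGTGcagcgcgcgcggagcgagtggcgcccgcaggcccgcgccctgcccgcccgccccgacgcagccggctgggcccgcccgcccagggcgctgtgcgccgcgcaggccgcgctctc
Egln3, chr12:54203825-54204124: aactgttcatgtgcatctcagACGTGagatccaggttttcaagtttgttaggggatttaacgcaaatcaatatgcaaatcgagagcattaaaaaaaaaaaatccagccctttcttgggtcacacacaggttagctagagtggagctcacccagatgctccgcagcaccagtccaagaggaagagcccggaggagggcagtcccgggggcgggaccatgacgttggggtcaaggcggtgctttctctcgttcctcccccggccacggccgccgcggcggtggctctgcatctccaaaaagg
Egln2, chr7:27166753-27167052: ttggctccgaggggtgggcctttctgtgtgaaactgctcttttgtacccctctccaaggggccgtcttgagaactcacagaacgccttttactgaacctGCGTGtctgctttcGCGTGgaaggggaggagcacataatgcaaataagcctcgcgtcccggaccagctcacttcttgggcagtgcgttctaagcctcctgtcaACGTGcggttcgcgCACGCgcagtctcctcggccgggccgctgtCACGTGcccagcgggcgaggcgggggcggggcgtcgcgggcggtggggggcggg
Egln1 held GCGTG at position −126 and ACGTG at −68 from the start site, and Egln3 held ACGTG at −229. Egln2 held 6 matches, 2 of which were the overlapping strands of a CACGTG palindrome at −4, and a second RefSeq window of Egln2 held 1. Windows were at hand for 8 of the 9 genes. Hif1a held 3 matches and Arnt 1, while Vhl, Arnt2 and Hif1an held none in these windows. Of 32851 such windows, 19.6% held ACGTG, 32.4% held GCGTG and 43.8% held either, and sequence outside the windows was not searched.

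Egln2, which encodes PHD1, was near the floor of the data. With DMSO it had 0.319, 2.66 and 1.13 CPM in Vhl cells, against 2.61, 3.55 and 1.002 CPM in control cells. With AZD8330 it had 6.64, 5.64 and 4.52 CPM in Vhl cells, against 6.80, 3.73 and 6.04 CPM in control cells. The genotypes overlapped in both media and the media separated within each genotype. Neither genotype difference passed (log2 −0.78 ± 0.58 with DMSO, edgeR adjusted p = 0.344, and log2 0.02 ± 0.52 with AZD8330, edgeR adjusted p = 0.984). Untreated Vhl libraries A to C had 3.25, 12.9 and 15.6 CPM, against 8.46, 5.20 and 5.29 CPM in control libraries, and the difference passed only when both A libraries were left out (log2 1.44, edgeR adjusted p = 0.0472; 0.756 with all libraries). Cyp2t4 overlaps the Egln2 locus on the opposite strand, but the annotated transcripts of both genes share no 31-base word on either strand. Hif1an, the asparaginyl hydroxylase gene, passed in no comparison. It had 85.41, 80.33 and 85.01 CPM in Vhl cells with DMSO, against 87.88, 83.92 and 91.67 CPM in control cells. With AZD8330 it had 82.41, 80.32 and 83.41 CPM in Vhl cells, against 86.46, 85.99 and 81.68 CPM in control cells. The libraries overlapped in both media, and the log2 differences were −0.07 ± 0.05 and −0.05 ± 0.05. Untreated Hif1an was 94.11 ± 22.3 CPM in Vhl cells and 122.6 ± 11.7 CPM in control cells (log2 −0.38 ± 0.21, edgeR adjusted p = 0.64). A difference of that size could not be told from none in these libraries.

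Counted together, 2 of the 8 tested genes rose and 2 fell in Vhl over control cells with DMSO, where 13.8% of all 13460 tested genes rose and 18.5% fell. With AZD8330, 2 rose and 3 fell, where 16% of all tested genes rose and 14% fell. With so few genes, these counts are not read as a result about the 8. The median log2 change of all tested genes was −0.03 with DMSO and 0.01 with AZD8330, beside −0.13 and −0.01 for the 8. In untreated cells 0 of 8 passed edgeR's test, where 0.0147% of 13569 genes rose and 0% fell. There, 4 of the 8 had an unadjusted p under 0.05, and DESeq2 called 2 and limma 0. Cell type markers differed between the genotypes too: 5 of 8 OPC markers rose and 1 fell in Vhl over control cells in both media, and of 5 astrocyte markers 1 rose and 2 fell with DMSO and 1 rose and 3 fell with AZD8330. The astrocyte markers summed to 720 to 762.9 CPM in Vhl cells and 657.9 to 722.4 CPM in control cells with DMSO, and to 1255 to 1283 CPM in Vhl cells and 1618 to 1691 CPM in control cells with AZD8330. Their part in the differences above was not tested.

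Summed per kilobase, the 3 prolyl hydroxylase transcripts stood at 249.4, 259.9 and 256.0 CPM per kilobase in Vhl cells with DMSO, against 54.04, 51.02 and 49.99 in control cells. With AZD8330 the sum was 275.2, 280.9 and 271.6 CPM per kilobase in Vhl cells, against 35.08, 34.04 and 34.57 in control cells. Untreated, it was 69.91, 290.3 and 358.6 in Vhl libraries A to C, against 34.65, 31.28 and 32.92 in control libraries. No Vhl library overlapped a control library of the same treatment. Egln1 made up 81.97 ± 1.03% of the sum in Vhl cells and 74.56 ± 1.38% in control cells with DMSO, and 75.96 ± 0.736% in Vhl cells and 65.94 ± 1.75% in control cells with AZD8330. The share of Egln3 was 17.84 ± 1.04% in Vhl cells and 23.8 ± 0.55% in control cells with DMSO, although its level was higher in Vhl cells. With AZD8330 the Egln3 share was 23.31 ± 0.616% in Vhl cells and 28.37 ± 0.618% in control cells. Among 20 comparisons of sums and shares, 19 had a two-sided exact permutation p of 0.1, the smallest that 3 against 3 libraries allow (adjusted 0.105), so none could pass 0.05; the exception was the untreated Egln3 share (exact p = 0.3).

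**Figure D3:**
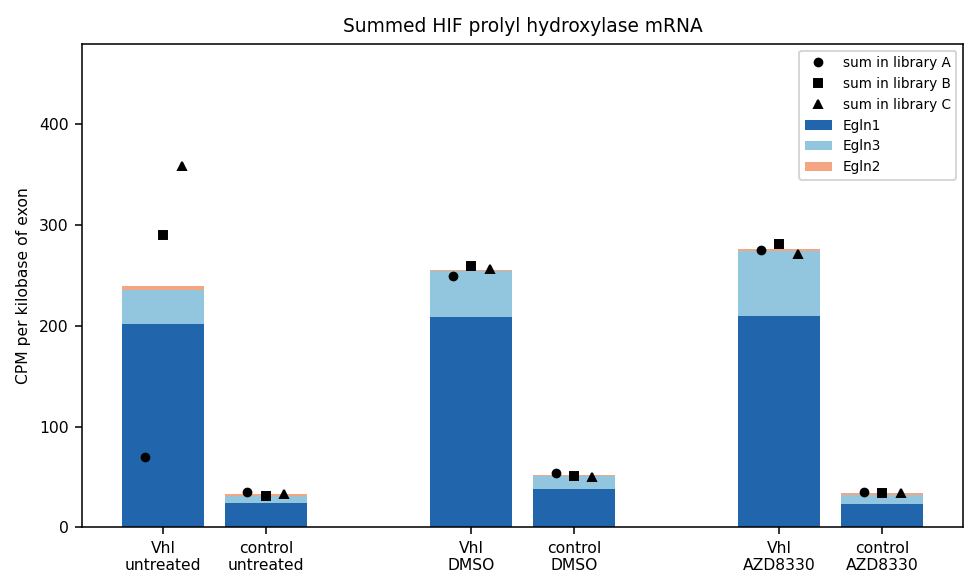
Stacked bars give the mean level per kilobase of exon (CPM per kilobase) of Egln1, Egln3 and Egln2 in each group, and points give the summed level in each library. Vhl groups stood at means of 239.6, 255.1 and 275.9 for untreated, DMSO and AZD8330 cells, against 32.95, 51.68 and 34.56 in the control groups, and untreated Vhl A lay far below Vhl B and C.

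The second experiment also asked what MEK inhibition did to these genes within each genotype. AZD8330 raised 3 of the 8 tested genes and lowered 0 in Vhl cells, where 25.8% of all tested genes rose and 25.6% fell. In control cells it raised 2 and lowered 2, where 29.1% of all tested genes rose and 31.7% fell. ERK feedback genes served as a check of the drug: 5 of 8 fell in Vhl cells and 7 of 8 in control cells, and 0 rose. Dusp6, an ERK phosphatase induced by ERK, had 32.85 ± 2.16 CPM with AZD8330 against 384.9 ± 16.4 CPM with DMSO in Vhl cells, and 20.93 ± 0.376 against 416.2 ± 9.52 CPM in control cells. Of the astrocyte markers, 5 of 5 rose with AZD8330 in both genotypes and none was at 0 in any group. They summed to 1255 to 1283 CPM with AZD8330 against 720 to 762.9 CPM with DMSO in Vhl cells, and to 1618 to 1691 against 657.9 to 722.4 CPM in control cells.

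Other marker sums moved with the drug as well. Of all tested genes, 25.8% rose and 25.6% fell with AZD8330 in Vhl cells, and 29.1% rose and 31.7% fell in control cells. With so few tested genes per list, the counts below are not read as a result about the markers. The neuron markers summed to 105.2 to 108 CPM with AZD8330 against 46.28 to 49.66 CPM with DMSO in Vhl cells, and to 94.4 to 98.07 against 42.7 to 45.43 CPM in control cells. Of the 3 tested, 1 rose in Vhl cells and 3 in control cells, and Syt1 was at 0 with DMSO in both genotypes. The myelinating oligodendrocyte markers summed to 25.25 to 28.69 CPM with AZD8330 against 8.541 to 14.97 CPM with DMSO in Vhl cells, and to 60.35 to 64.54 against 13.87 to 16.42 CPM in control cells. Of the 4 tested, 1 rose in Vhl cells and 2 in control cells, and Mog was at 0 in every group except Vhl cells with DMSO. The mesenchymal markers summed to 20.06 to 21.53 CPM with AZD8330 against 4.85 to 7.184 CPM with DMSO in Vhl cells, and to 9.656 to 14.6 against 4.625 to 6.369 CPM in control cells. Of the 2 tested, 2 rose in Vhl cells and 1 in control cells, and Pdgfrb was at 0 in all 4 groups, as was Col3a1 in both control groups. Schwann cell and pluripotency sums were lower with the drug. The Schwann cell markers summed to 45.35 to 48.24 CPM with AZD8330 against 85.38 to 88.87 CPM with DMSO in Vhl cells, and to 38.88 to 45.58 against 88.51 to 96.1 CPM in control cells. Of the 3 tested, 1 rose and 1 fell in Vhl cells, and 1 rose and 2 fell in control cells. The pluripotency markers summed to 4.77 to 6.203 CPM with AZD8330 against 15.85 to 20.03 CPM with DMSO in Vhl cells, and to 5.896 to 7.324 against 19.22 to 23.8 CPM in control cells. Of the 3 tested, 1 rose and 2 fell in Vhl cells, and 1 rose and 1 fell in control cells, and Pou5f1 and Zfp42 were at 0 in all 4 groups. The part of these markers in the changes that follow was not tested.

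With AZD8330, Hif1a rose by log2 0.20 ± 0.04 in Vhl cells (edgeR adjusted p = 0.00114), a call lost without the 4 A libraries (adjusted p = 0.0572), and by log2 0.34 ± 0.04 in control cells (edgeR adjusted p = 8.53e-06). Vhl did not pass in Vhl cells (log2 0.12 ± 0.05, edgeR adjusted p = 0.0682) and rose in control cells (log2 0.38 ± 0.05, edgeR adjusted p = 1.48e-05). Without library C of Vhl cells with AZD8330, the Vhl gene did pass in Vhl cells (log2 0.14, edgeR adjusted p = 0.0144). The prolyl hydroxylase genes came next. Egln1 did not change in a detectable way in Vhl cells (log2 0.00 ± 0.03, edgeR adjusted p = 0.946) and fell in control cells (log2 −0.76 ± 0.04, 0.592-fold, edgeR adjusted p = 1.12e-09). Egln3 rose in Vhl cells (log2 0.50 ± 0.05, 1.41-fold, edgeR adjusted p = 2.24e-06) and fell in control cells (log2 −0.33 ± 0.06, 0.796-fold, edgeR adjusted p = 0.000343). Egln2 rose in Vhl cells, at low levels (3.999-fold, with an SE of 0.57 on the log2 scale, edgeR adjusted p = 0.00992). The call held with any 1 of the 6 Vhl libraries left out, at log2 1.55 without Vhl DMSO A to log2 2.92 without Vhl DMSO B, and was lost without the 4 A libraries (log2 1.36, edgeR adjusted p = 0.107). In control cells Egln2 did not pass (log2 1.20 ± 0.54, edgeR adjusted p = 0.0711), although DESeq2 (adjusted p = 0.0413) and limma (0.0326) called it. So did edgeR without the filter (0.0135), in a fit of those 2 groups (0.0375) and without control DMSO B (0.0455). Arnt2 was at log2 0.00 ± 0.04 in Vhl cells and at log2 0.10 ± 0.04 in control cells (edgeR adjusted p = 0.995 and 0.0561). The control value passed under DESeq2 (adjusted p = 0.0226). In edgeR it passed with DESeq2 size factors (0.028), library totals (0.00797), the replicate block (0.0441) and a fit of those 2 groups (0.0453). It also passed in edgeR without control AZD8330 C (0.0244), control DMSO B (0.0389) or control DMSO C (0.0458), but not without the 4 A libraries (0.142). Arnt and Hif1an did not pass in either genotype.

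**Figure D4:**
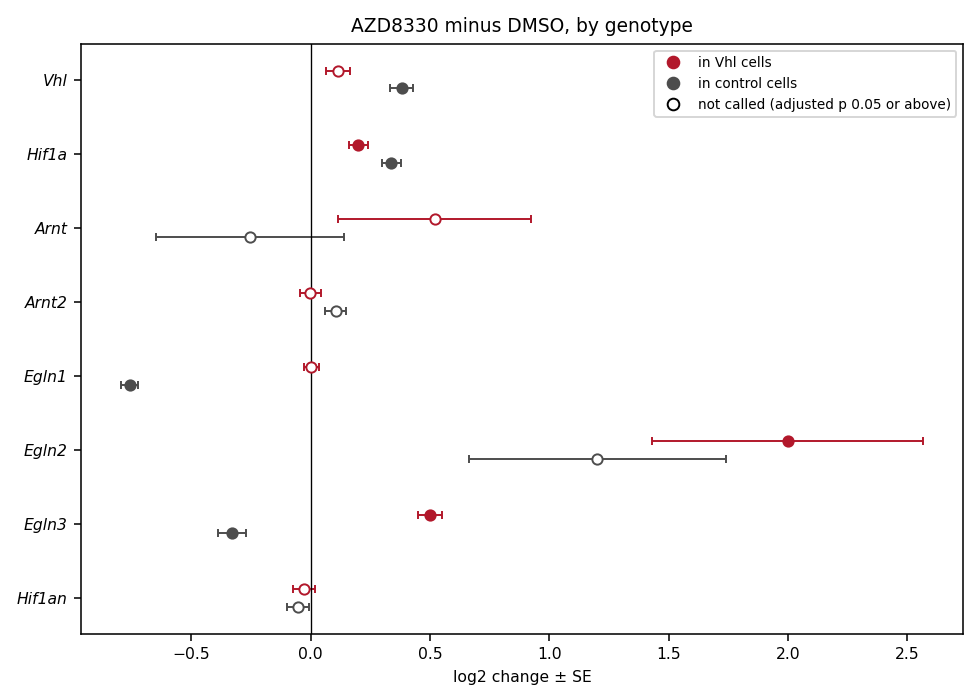
The log2 change ± SE (horizontal axis) with AZD8330 over DMSO is drawn for the 8 tested genes in Vhl cells (red) and control cells (grey), with filled points past an adjusted p of 0.05 in edgeR. Egln3 lies at 0.50 in Vhl cells and at −0.33 in control cells, and Egln1 at 0.00 in Vhl cells and at −0.76 in control cells.

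The difference between the drug effects, Vhl minus control, was tested directly in the same fit. It was positive and called for 2 of the 8 genes and negative and called for 1, where 7.81% of all tested genes were called positive and 4.96% negative. Egln1 differed by log2 0.76 ± 0.05 (edgeR adjusted p = 1.69e-06) and Egln3 by log2 0.83 ± 0.08 (edgeR adjusted p = 2.72e-05). Vhl differed by log2 −0.27 ± 0.07 (edgeR adjusted p = 0.0242), from log2 0.12 in Vhl cells and 0.38 in control cells. That call was lost without control AZD8330 A (adjusted p = 0.0546), control DMSO C (0.0537), Vhl DMSO B (0.0538) or Vhl DMSO C (0.056), and without all 4 A libraries (0.0511). Hif1a, at log2 −0.14 ± 0.06, did not pass in edgeR (adjusted p = 0.149) but did in DESeq2 (adjusted p = 0.0494), with library totals in edgeR (0.0247) and without Vhl AZD8330 A in edgeR (0.0342).

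Other genes of the pathway were read from lists. Of 16 tested HIF target genes that are not among the 9, 15 rose and 0 fell in Vhl over control cells with DMSO, at a median log2 change of 2.29, and 15 rose and 0 fell with AZD8330, at a median of 3.04, beside medians of −0.03 and 0.01 over all tested genes. Of all tested genes, 13.8% rose and 18.5% fell with DMSO, and 16% rose and 14% fell with AZD8330. Bnip3, a mitophagy receptor gene, had 651.2 ± 30.0 CPM in Vhl cells and 19.79 ± 1.63 CPM in control cells with DMSO, and 947.1 ± 33.5 CPM in Vhl cells and 37.21 ± 0.566 CPM in control cells with AZD8330. In untreated cells 2 of 17 rose, Mif and Fam162a, at a median of 2.75 over the list, beside 0.05 over all tested genes. These 2 were all the genes that rose there, 0.0147% of the 13569 tested. The HIF target list was chosen with earlier results of these data known, so its counts only describe the data. AZD8330 raised 10 of 16 and lowered 0 in Vhl cells, and raised 4 and lowered 6 in control cells, where 25.8% of all tested genes rose and 25.6% fell in Vhl cells and 29.1% rose and 31.7% fell in control cells. The difference of drug effects was positive and called for 7 of the 16 and negative and called for 2, where 7.81% of all tested genes were positive and 4.96% negative. The cytokine gene Mif was among the 7 (log2 0.65 ± 0.04, edgeR adjusted p = 2.09e-06). So was Higd1a, which encodes a mitochondrial protein (log2 0.77 ± 0.07, edgeR adjusted p = 2.09e-05). Other listed genes went the other way from Egln1 and Egln3. With AZD8330 over DMSO, Bnip3 rose by log2 0.54 in Vhl cells and 0.91 in control cells. Ddit4 rose by log2 1.19 in Vhl cells and 1.89 in control cells.

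Genes that act on HIF-alpha by other routes gave mixed counts. Of 11 tested regulators of its stability or activity, 2 rose and 2 fell with DMSO, 3 rose and 1 fell with AZD8330, and 0 passed in untreated cells, all in Vhl over control cells. Over all tested genes, the shares were 13.8% up and 18.5% down with DMSO and 16% up and 14% down with AZD8330. In untreated cells they were 0.0147% up and 0% down. The counts are thus not read as a result about the regulators. Cited2, which competes with HIF-alpha for coactivators and is itself a HIF target, rose to 33.62 ± 3.36 CPM in Vhl cells, against 20.09 ± 0.532 CPM in control cells, with DMSO (log2 0.74 ± 0.10, edgeR adjusted p = 9.02e-05). With AZD8330 it rose to 30.19 ± 3.78 CPM in Vhl cells, against 16.02 ± 0.4 CPM in control cells (log2 0.91 ± 0.10, edgeR adjusted p = 1.61e-05). Siah2 encodes a ubiquitin ligase that acts on prolyl hydroxylases. Among cells given AZD8330, it was higher in Vhl than in control cells (27.64 ± 1.90 against 16.97 ± 0.565 CPM, edgeR adjusted p = 9.8e-05). With DMSO, Siah2 had 31.77, 33.88 and 26.62 CPM in Vhl cells, against 27.74, 27.62 and 25.76 CPM in control cells, with overlap. Control cells thus had less Siah2 with the drug than with DMSO. AZD8330 raised 1 and lowered 3 of the 11 in Vhl cells and raised 3 and lowered 5 in control cells, and the difference was called positive for 4 and negative for 1. The shares over all tested genes were 25.8% up and 25.6% down in Vhl cells, 29.1% up and 31.7% down in control cells, and 7.81% positive and 4.96% negative for the difference. Os9, whose product is known to bind HIF-1 alpha and prolyl hydroxylases, rose with the drug in both genotypes, at 313.7 ± 8.52 CPM with AZD8330 against 191.6 ± 6.22 CPM with DMSO in Vhl cells and 354.3 ± 3.27 against 173.1 ± 3.47 CPM in control cells.

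Of 6 tested bHLH-PAS factors, the family of HIF and ARNT, 3 rose and 1 fell with DMSO, and 2 rose and 0 fell with AZD8330, in Vhl over control cells; 0 of 5 passed in untreated cells. Beside them, 13.8% of all tested genes rose and 18.5% fell with DMSO, and 16% rose and 14% fell with AZD8330. In untreated cells 0.0147% rose and 0% fell. Npas1, low in all groups, rose in both media, at 1.36 ± 0.158 CPM in Vhl cells against 0.311 ± 0.124 CPM in control cells with DMSO and 6.95 ± 1.25 against 0.27 ± 0.0828 CPM with AZD8330. Hif3a, which encodes another HIF-alpha subunit, fell with DMSO, at 2.71 ± 0.365 CPM in Vhl cells and 4.40 ± 0.416 CPM in control cells (log2 −0.70 ± 0.21, edgeR adjusted p = 0.0245). AZD8330 raised Hif3a in both genotypes, at 10.6 ± 1.99 CPM against 2.71 ± 0.365 CPM with DMSO in Vhl cells and 8.55 ± 1.68 against 4.40 ± 0.416 CPM in control cells. In all, the drug raised 4 and lowered 1 of the 6 in Vhl cells, and raised 3 and lowered 1 in control cells, and the difference was positive and called for 2, beside the shares of all tested genes given for the regulators. With 6 genes, none of these counts is read as a result about the family. ERK feedback genes, read for the edit, rose in 2 of 8 with DMSO, 6 of 8 with AZD8330 and 0 of 8 untreated, and Dusp6 was among the 6. Over all tested genes, 13.8% rose with DMSO, 16% with AZD8330 and 0.0147% untreated. The difference of drug effects was positive and called for 2 of these 8, where 7.81% of all tested genes were called positive.

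The genes whose profile over the 12 drug libraries was most like that of each HIF pathway gene were ranked by Pearson's r of log2(CPM + 1), as a description, since the libraries form 4 groups and share their treatment. For Egln1 they were Pgam1 (r = 0.9994), Mif (0.9993) and Fam162a (0.9991). For Egln3 they were Gapdh (r = 0.9971), Higd1a (0.9965) and Gbe1 (0.9953). Gbe1, a glycogen branching enzyme gene, averaged 314.8 CPM in Vhl and 25.52 CPM in control cells with AZD8330, and 198.1 CPM in Vhl and 27.09 CPM in control cells with DMSO. Hif1a ran closest to Kitl (r = 0.993), Trps1 (0.9895) and Bche (0.9873), and Vhl to Sall2 (r = 0.9852), Cpxm1 (0.9768) and Ier5 (0.9748). Kitl, which encodes KIT ligand, averaged 111.9 CPM in Vhl and 260.6 CPM in control cells with AZD8330, and 72.36 CPM in Vhl and 128.9 CPM in control cells with DMSO, the order of groups that Hif1a shows. The first ranks of the other genes were 0.952 for Egln2 (Prrg2), 0.9315 for Arnt (Ankib1), 0.8721 for Arnt2 (Slc26a2) and 0.853 for Hif1an (Edc4).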

How the data were processed

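Per the submitters' processing notes, the authors used Salmon 0.14.1 with mm10; the sources used here do not give the step from transcripts to genes. Estimated counts per gene were deposited by the authors in 2 tables, for 6 untreated and 12 drug libraries: totals differ between libraries, unlike TPM, which the table names state. The counts were rounded and each table was fitted separately with edgeR 4.0.16 (R 4.3.3, TMM, quasi-likelihood test) over genes averaging 1 CPM or more. Benjamini-Hochberg adjustment ran over all tested genes (threshold 0.05), and SE is the log2 change divided by the square root of F. DESeq2 1.42.0, limma 3.58.1 on log2(CPM + 1), other scalings and filters, and left-out libraries were alternatives. The edgeR step was tested on simulated data. The 4 drug groups shared 1 fit. Positions come from GENCODE for GRCm38, promoters from RefSeq. The genes and lists were chosen with earlier results of these data known. The text names all 9 genes and all 6 genes for proteins that work with VHL. Of each other list of pathway or ERK feedback genes, it names up to 4 tested members with the smallest p per comparison. Marker genes were not named by this rule. The widely used genes were picked after their values were seen. Ca9 (both tables) and Pdk1 (drug table) were not analysed here, nor were protein sequences. Figures were drawn with matplotlib 3.10.9.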

Additional observations from a re-analysis of the deposited data

Results flagged for a closer look

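The effect of AZD8330 differed between Vhl and control cells for 3 of the 8 tested genes, by a direct test of the difference in edgeR. Of these, 2 were positive and 1 negative, where 7.81% of all tested genes were called positive and 4.96% negative. For Egln1 the difference was log2 0.76, from 0.00 in Vhl cells and −0.76 in control cells (adjusted p = 1.69e-06). For Egln3 it was log2 0.83, from 0.50 in Vhl cells and −0.33 in control cells (adjusted p = 2.72e-05). For Vhl it was log2 −0.27, from 0.12 in Vhl cells and 0.38 in control cells (adjusted p = 0.0242), and it missed the threshold when any of 4 single libraries was left out.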

How the results depend on the processing

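The calls on Egln1 and Egln3 in Vhl over control cells with DMSO and with AZD8330, on both genes for AZD8330 in control cells, and on the difference of drug effects held under every alternative run. So did the calls on Hif1a in Vhl over control cells in both media. Without the 4 A libraries of the drug experiment, 2811 genes were called with DMSO, 743 for the difference (245 positive), and 1 of the 8 tested genes for AZD8330 in Vhl cells. In untreated cells the number of genes called was 355 with DESeq2, 4 with limma, 143 without the filter and 606 without both A libraries, and between 0 and 439 when 1 library was left out: 439 without Vhl A, 3 without Vhl C and 0 without any other. Of the HIF pathway genes, 2 were called there with DESeq2, 2 without the filter, 3 without both A libraries and between 0 and 2 with 1 library left out. Same-letter correlations of deviations ran from −0.0809 to 0.0527, and these do not settle whether the replicate letters pair the samples. All 3 control libraries with DMSO correlated best with the Vhl DMSO library of their own letter. So did all 3 Vhl AZD8330 libraries with those of Vhl DMSO, while other pairs of drug groups gave 1 or 2. In untreated cells, 0 of 3 control libraries did so with Vhl libraries. With the replicate block, 0 genes were called in untreated cells and Egln2 in Vhl over control cells with AZD8330 was at log2 −0.0372. Small, uncalled values changed sign. Egln1 for AZD8330 in Vhl cells was −0.00382 with DESeq2 size factors, −0.00386 with DESeq2, −0.0351 with filterByExpr, −0.00303 with library totals, −0.00766 without the filter, −0.0641 without the 4 A libraries, and −0.0619 to 0.0148 with 1 library left out. Arnt2 in Vhl over control cells with DMSO was 0.0425 with library totals, 0.0159 in a fit of those 2 groups and −0.0699 to 0.00675 with 1 library left out. Egln2 in Vhl over control cells with AZD8330 was −0.0199 with DESeq2 size factors, −0.0202 with DESeq2 and −0.235 to 0.199 with 1 library left out. Hif1an for AZD8330 in control cells was 0.00339 with library totals and −0.0862 to 0.00594 with 1 library left out. Its difference of drug effects was −0.00443 with DESeq2 size factors, −0.00462 with DESeq2, −0.0359 with library totals, −0.0358 without the 4 A libraries and −0.0787 to 0.058 with 1 library left out. With 1 library left out, Arnt ran from −0.588 to 0.142 for AZD8330 in control cells and from −0.324 to 0.298 in Vhl over control cells with AZD8330, and Arnt2 from −0.0672 to 0.0202 for AZD8330 in Vhl cells. The cause of these shifts was not tested. Arnt and Egln2 had the fewest counts of the 8 tested genes (2366 and 1468 estimated counts over 18 libraries), and the part of depth in these shifts was not tested.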

Other observations

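Beside the libraries, the untreated data include means computed by the authors. In the authors' deposited table, the column named VHL equals the mean of control B, control C and Vhl A in all 54279 rows, within 0.001, and not the mean of the 3 Vhl libraries. For Egln1, the VHL column of the authors' deposited table gives 2359.7 estimated counts, whereas the 3 Vhl libraries average 11812.7. For Egln3, the VHL column of the authors' deposited table gives 462.3 and the 3 Vhl libraries average 1482. These columns entered no comparison.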
